A study of Oryctolagus cuniculus with 12 samples.

Results

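Scars of the rabbit ear treated with drug-loaded MNs were compared with untreated HS, using 3 samples of each out of the 12 in the series. The samples were chosen by their labelled treatment alone, and the comparison covered 13287 of the 29587 genes listed, those whose FPKM averaged 1 or more across the 12 samples. FPKM is a count of sequenced fragments per gene, corrected for gene length and library size. All samples were full-thickness ear of wild-type rabbits, which holds epidermis and dermis of both faces with cartilage between them, and was taken a week after the last administration. HS was raised on the ventral face by wounds from which epidermis, dermis and perichondrium had been removed, and its lesions received no treatment. Treated lesions were given 1 drug-loaded patch on days 22, 29 and 36 each. The needle tips were photo-crosslinked GelMA, a gelatin hydrogel that matrix metalloproteinases can digest, loaded with a peptide prodrug that releases a 5-fluorouracil derivative when oxidants cut it. The other groups, normal skin (NS) and HS injected with 5-Fu, entered the fit but are not described for their own sake. Each group was made of its own 3 rabbits, and patches without drug were not analysed here, so effects of the needles and of the drug cannot be told apart. Reads on genes ranged from 11586607 to 14043667 in HS and from 11250534 to 11924979 after drug-loaded MNs.

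A hypertrophic scar forms when fibroblasts and myofibroblasts keep laying down and crosslinking collagen after a wound has closed. 5-Fluorouracil blocks thymidylate synthase and is built into RNA, and it is used in scars because it slows dividing fibroblasts. Over the dermis, keratinocytes leave the basal layer, switch to the keratins KRT1 and KRT10, tie themselves together with desmosomes, and end as flattened cells with a cornified envelope sealed by lipids.

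With all 12 samples in 1 limma fit of log2(FPKM + 1), 1 gene passed both thresholds, an absolute log2 fold change above 1 and an adjusted p (Benjamini-Hochberg) under 0.05, which is 0.00753% of the genes tested. Without adjustment, 635 genes were higher and 548 lower at p under 0.05 after drug-loaded MNs. Changes above 1 on the log2 scale were mostly upward: 359 genes had a log2 fold change above 1 and 86 had a log2 fold change below -1. The 3 treated samples all lay above the 3 HS samples in 1133 genes (8.53% of those tested) and all below them in 1375 genes (10.3%). These shares are the background for the counts of list members without overlap given hereafter. With FPKM rescaled to the reads of each sample in total, the counts were 2172 and 489. Before it, 257 of the former had a log2 fold change above 1, and 57 of the latter had a log2 fold change below -1. The median log2 fold change of all tested genes was -0.02, and the same rescaling moved it to 0.11, with 1184 genes then higher and 169 lower at an unadjusted p under 0.05. The signs of list medians given hereafter hold under this rescaling unless stated, whereas the counts of genes without overlap were taken before it. Before rescaling, 6217 of the tested genes (46.8%) had a higher mean after drug-loaded MNs and 7070 a lower mean. These are the background for counts of list members with a higher or lower mean.

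**Figure D1:**
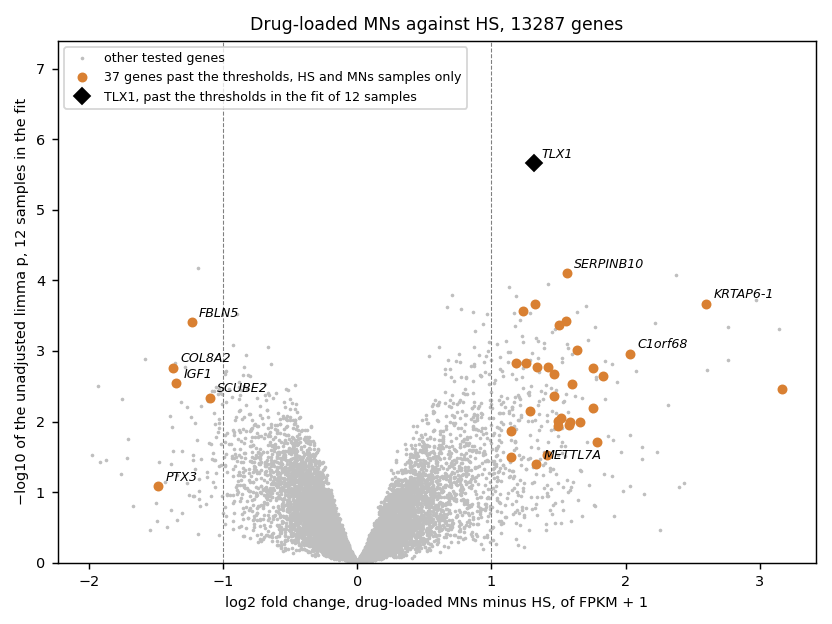
Each point is 1 of 13287 genes, with the log2 fold change of FPKM + 1 (drug-loaded MNs minus HS) on the horizontal axis and −log10 of the unadjusted limma p from the fit of 12 samples on the vertical axis. The black diamond is TLX1, orange points are the 37 genes past the thresholds when only HS and drug-loaded MNs samples entered the fit (32 higher and 5 lower), and dashed lines mark log2 fold changes of -1 and 1.

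The gene that rose was TLX1, a homeobox transcription factor best known for its part in the formation of the spleen (ENSOCUG00000013136; chromosome 18, bases 49216354 to 49221362 in the coordinates of the table, whose genome build is not given in the sources used here). Its FPKM was 7.36, 6.32 and 6.17 in HS and 15.5, 16.6 and 22.4 after drug-loaded MNs. In NS it was 25.1, 21.9 and 24.3. Every treated sample was thus more than all HS samples, and only the highest of them reached the NS range. The ratio of the means was 2.74 and the log2 fold change 1.32 (95% interval 0.99 to 1.64, limma adjusted p = 0.029). The call was lost without any of the HS replicates or without treated replicate 2 or 3, at limma adjusted p of 0.0739 to 0.302. Its adjusted p was 0.155 with limma voom, which tests the reads counted back from the FPKM. Of the 37 tested genes on the list of mesenchymal and homeobox transcription factors, TLX1 was the only one above HS in every treated sample (8.53% of all tested genes were), while 9 lay below HS in every treated sample (10.3% of all tested genes). Among these was RUNX2, the factor that commits cells to bone, at 7.29, 5.52 and 5.95 in HS and 4.64, 3.97 and 4.75 after treatment, which did not pass (log2 fold change -0.41, limma adjusted p = 0.668).

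When the fit was limited to the 6 samples compared, 37 genes passed the same thresholds (0.278% of those tested), 32 higher and 5 lower after treatment. HS and treated values were fully separate in each of the 37, against 8.53% (higher) and 10.3% (lower) of all tested genes. Selection on the same 6 samples favoured this separation, here and for the genes of this fit named next. The larger count of 37 comes with a spread estimated from 6 samples. The SD of log2(FPKM + 1) of the 37 genes had a median of 0.15 in HS and 0.20 after drug-loaded MNs, where a small SD favoured their selection, against 0.61 in NS and 0.84 after 5-Fu injection. Over all tested genes these medians were 0.20, 0.24, 0.22 and 0.30. In the fit of 12 samples, which has the same differences of means and another estimate of the spread, 36 of the 37 had an unadjusted p under 0.05. The count was 52 with limma voom (46 higher and 6 lower, 32 of them among the 37) and 103 after rescaling to total reads (100 higher and 3 lower). It was 0 without any of the HS replicates or without treated replicate 2, 9 without treated replicate 1 and 2 without treated replicate 3. The adjusted p of the genes named next comes from the fit of these 6 samples.

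Several of the 32 higher genes are known from the outermost, cornifying layers of the epidermis. LCE1C and LCE1B are late cornified envelope proteins, which are crosslinked beneath the membrane of dying keratinocytes. LCE1C was at an FPKM of 26.5, 27.8 and 26.7 in HS and 100, 94.2 and 87.8 after drug-loaded MNs (log2 fold change 1.76, limma adjusted p = 0.0108). LCE1B was at 45.4, 55.9 and 55.3 in HS and 176, 168 and 137 after treatment (1.60, limma adjusted p = 0.0384). The HS values of both were tightly grouped, and every treated value lay above them. C1orf68, also known as a skin-specific protein of the same gene complex, went from 33.7, 59.1 and 54.7 to 221, 236 and 150.2 (2.03, limma adjusted p = 0.0486). The protease ASPRV1, which processes filaggrin, was at 191, 113 and 142 in HS and 419, 405 and 487 after treatment (1.58, limma adjusted p = 0.0486). CDSN, the corneodesmosin that holds corneocytes together, was at 57.4, 68 and 79.3 in HS and 150.0, 164 and 140.4 after treatment (1.15, limma adjusted p = 0.0486). LCE genes are close copies of each other, so their reads may have been split between them.

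Lipid enzymes of the same layers were also among the 32. SULT2B1, which makes cholesterol sulphate, was at 15.2, 13.2 and 16.4 in HS and 29.4, 37.2 and 39.8 after treatment (log2 fold change 1.19, limma adjusted p = 0.0486). LIPM, a lipase of the granular keratinocyte, was at 13.8, 15.4 and 17.2 in HS and 39.2, 60.6 and 52.8 after treatment (1.64, limma adjusted p = 0.0384). The secreted phospholipase PLA2G2F was at 4.68, 6.25 and 6.22 in HS and 14.4, 18.7 and 14.9 after treatment (1.34, limma adjusted p = 0.0486), and PLA2G3 had a ratio of means of 3.64. In all of these enzymes every treated sample lay above every HS sample.

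Serpins, which are protease inhibitors, made up 4 of the 32. SERPINB10 was at 9.03, 11.4 and 10.5 in HS and 27.7, 33.4 and 36.0 after treatment (log2 fold change 1.56, limma adjusted p = 0.0384). SERPINB7 was at 11.6, 9.55 and 11.1 in HS and 29.6, 40.6 and 30.9 after treatment (1.55, limma adjusted p = 0.0384). SERPINB13 and SERPINA12 had ratios of means of 3.06 and 2.88. IL37, an interleukin-1 family member that dampens inflammation and was named here by its description, was at 22.1, 26.6 and 26.3 in HS and 82.3, 98.3 and 65.7 after treatment (1.66, limma adjusted p = 0.0384). The nuclear receptor RORA was at 8.09, 7.98 and 7.54 in HS and 16.1, 19.6 and 20.6 after treatment (1.15, limma adjusted p = 0.0486). The others with a symbol were the actin-binding POF1B, ATG9B of the autophagy pathway, METTL7A, PHYHIP and the hair protein KRTAP6-1, with TLX1. Of the 37, 12 carried no symbol in the table.

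Relative to NS, 31 of the 32 higher genes had a lower mean in HS, and 29 had a mean after drug-loaded MNs above that of NS. Both counts are favoured by the selection of these genes for low HS and high treated values. The share over all tested genes was not counted. NS replicate 2 was the lowest of the NS samples in 30 of the 32. For LCE1C, for instance, NS was at 99.1, 42.8 and 103.

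**Figure D2:**
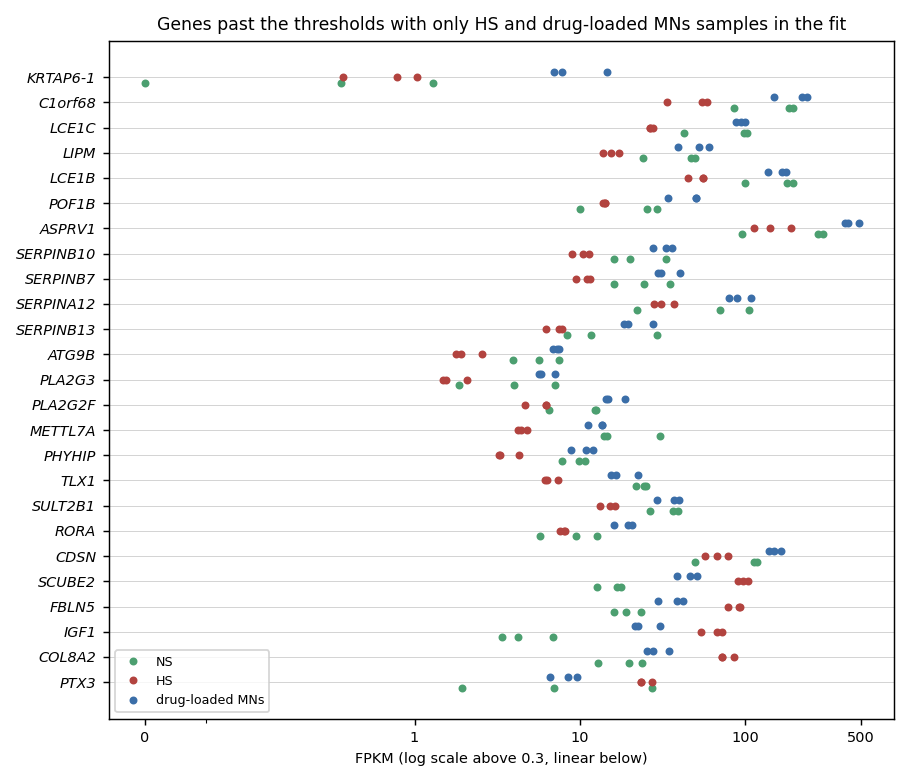
FPKM of each NS, HS and drug-loaded MNs sample (3 points per group, log scale above 0.3 and linear below) for the 25 genes with a symbol among the 37 that passed with the fit limited to the 6 samples compared. The HS and treated points do not overlap in any gene, which selection on the same samples favoured. NS points are spread in genes such as LCE1C and SERPINA12 and close together in TLX1.

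The genes called in this fit lay partly side by side. On chromosome 13, 7 of them fell between bases 39134483 and 39754278, a stretch of 620 kilobases with 22 tested genes that holds the late cornified envelope genes, IVL and C1orf68. Of these 22 genes, 20 had a higher mean after drug-loaded MNs, 9 lay above HS in every treated sample and 0 lay below, with a median log2 fold change of 1.03. On chromosome 9, SERPINB13, SERPINB7 and SERPINB10 fell between bases 103824008 and 104127667, where all 6 tested genes had a higher mean (median log2 fold change 1.47). The bounds of both stretches were set by the called genes themselves, which are also counted, as 7 of the 22 genes and 3 of the 6. All 7 are among the 9 above HS in every treated sample, as their selection favoured. These counts are therefore descriptions.

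The 5 lower genes are secreted products of connective tissue. IGF1, the insulin-like growth factor, was at an FPKM of 72.5, 54.0 and 68 in HS and 30.6, 21.6 and 22.6 after drug-loaded MNs (log2 fold change -1.35, limma adjusted p = 0.0486 with the 6 samples and 0.28 with all 12). NS was at 4.23, 6.84 and 3.38, so the treated samples lay between the other groups. COL8A2, a short-chain collagen, was at 73.0, 85.6 and 72.3 in HS and 27.7, 34.6 and 25.5 after treatment (-1.37, limma adjusted p = 0.0384). FBLN5, which guides the assembly of elastic fibres, was at 91.4, 92.8 and 78.9 in HS and 42.3, 38.9 and 29.9 after treatment (-1.23, limma adjusted p = 0.0486). SCUBE2, a secreted carrier of hedgehog ligands, was at 91.2, 97.2 and 105 in HS and 50.9, 46.3 and 38.8 after treatment (-1.10, limma adjusted p = 0.0486). The pentraxin PTX3 was at 27.2, 23.4 and 23.4 in HS and 6.59, 8.54 and 9.58 after treatment (-1.48, limma adjusted p = 0.0384 with the 6 samples and 0.613 with all 12). Its NS values were 6.96, 27.4 and 1.93, and it was the gene of the 37 with an unadjusted limma p above 0.05 in the fit of 12 samples (0.082). In all 5 the highest treated value lay below the lowest HS value.

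**Figure D3:**
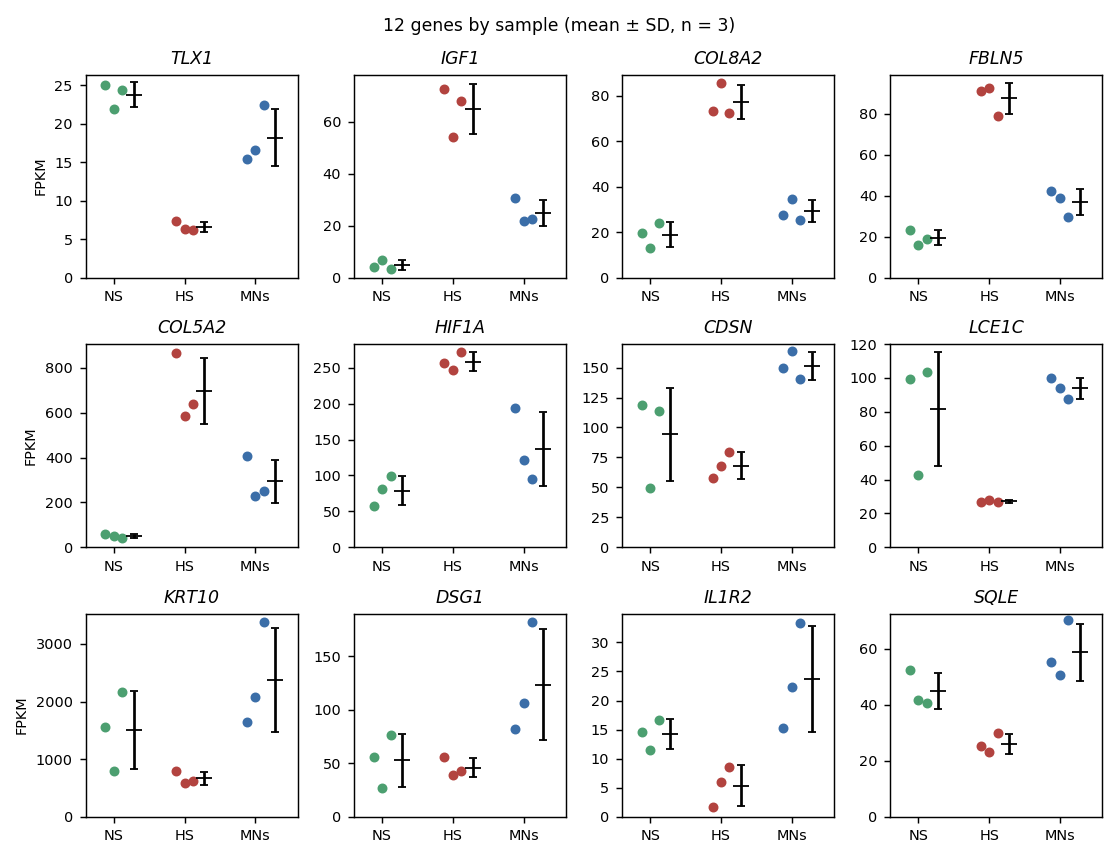
FPKM of 12 genes in each NS, HS and drug-loaded MNs (MNs) sample, with the mean and SD of each group (n = 3). The treated samples lie below all HS samples in IGF1, COL8A2, FBLN5, COL5A2 and HIF1A and above them in the other 7 genes.

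The epidermal gene lists had the highest medians of the 36 lists. Of 13 tested epidermal keratins all had a higher mean after drug-loaded MNs, and 7 lay above HS in every treated sample (background 8.53%), with a median log2 fold change of 1.19. KRT10 was at an FPKM of 794, 588 and 613 in HS and 1649, 2084 and 3385 after treatment, a difference of 1.78 on the log2 scale (SE 0.46, limma adjusted p = 0.261). KRT1 was at 817, 422 and 483 in HS and 1521, 1257 and 4053 after treatment (1.84, limma adjusted p = 0.239). KRT2, a keratin of the upper spinous and granular layers, was at 395, 499 and 444 in HS and 1133, 2155 and 1874 after treatment (1.90, limma adjusted p = 0.24). The basal keratin KRT5 was at 243, 239 and 207 in HS and 394, 464 and 952 after treatment (1.28, limma adjusted p = 0.31). Treated replicate 3 was the highest in all of these but KRT2. None of the 13 passed either fit.

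Among 16 tested desmosome components, 15 had a higher mean and 10 lay above HS in every treated sample, with a median log2 fold change of 1.10. PKP1, a plaque protein, was at 31.5, 44.7 and 45.8 in HS and 84.8, 111 and 129.9 after drug-loaded MNs (1.39, limma adjusted p = 0.239). The cadherin DSG1 was at 55.7, 38.8 and 43.0 in HS and 82.0, 106 and 182 after treatment (1.34, limma adjusted p = 0.464). Of 32 cornified envelope proteins and proteases, 31 had a higher mean and 18 lay above HS in every treated sample, with a median of 1.25. CSTA, a cysteine protease inhibitor of the envelope, was at 93.5, 79.7 and 82.1 in HS and 182, 305 and 402 after treatment (1.72, limma adjusted p = 0.239). SPINK5, the inhibitor of the proteases that shed corneocytes, was at 44.6, 27.1 and 30.9 in HS and 58.8, 83.8 and 133 after treatment (1.35, limma adjusted p = 0.248). Of 31 epidermal lipid barrier genes, 26 had a higher mean and 18 lay above HS in every treated sample, with a median of 0.76. ALOX12B, a lipoxygenase acting on envelope ceramides, was at 5.86, 5.52 and 6.50 in HS and 15, 23.7 and 11.1 after treatment (1.28, limma adjusted p = 0.31).

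In these 3 lists 1, 1 and 2 genes passed in the fit of 6 samples (CDSN, ASPRV1, and LIPM with SULT2B1), and 0 passed with 12. The list of cornified envelope proteins and proteases does not hold LCE1C, LCE1B and C1orf68, which also passed with 6 samples. The 12 genes that the study names as hubs of its network, all epidermal, lay above HS in every treated sample, with a median log2 fold change of 1.29, and each had an unadjusted limma p under 0.05, but with 12 samples in the fit their smallest adjusted p was 0.239. They were picked by the study on these samples, so their direction is not independent evidence. Genes of basal attachment were divided. Of 18 hemidesmosome and basement membrane genes, 8 had a higher and 10 a lower mean, and their median of -0.12 became 0.03 after rescaling to total reads. COL17A1, a transmembrane collagen of the hemidesmosome, stood out at 51.6, 45 and 39.5 in HS and 109, 115 and 234 after treatment (1.64, limma adjusted p = 0.188).

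The keratinocyte markers, which share genes with these lists, were also higher. Summed over 9 tested markers of 11, their FPKM ranged from 1380 to 1979 in HS, from 3713 to 8642 after drug-loaded MNs and from 2229 to 3820 in NS, and none of the 9 was at 0 in every HS and treated sample. All 9 had a higher mean after treatment and 4 lay above HS in every treated sample. Most of the summed FPKM is KRT1, KRT10 and KRT5, with means of 574, 665 and 230 in HS and 2277, 2373 and 603 after treatment. They were already described among the epidermal keratins, so the sum is not separate evidence. TP63, DSG3, ITGA6, ITGB4 and CDH1 overlapped between the groups. In bulk tissue, more cells of a type and more RNA per cell cannot be told apart, and the share of epidermis in each piece of tissue was not tested. Other epidermal populations varied within groups. The summed FPKM of 19 hair follicle markers ranged from 144 to 1777 in HS and from 361 to 1238 after treatment, and that of 8 melanocyte markers from 26.1 to 83.2 and from 51.2 to 130.3. Of the keratin-associated proteins of hair, KRTAP6-1 and KRTAP20-1 reached a mean FPKM of 1 only through the treated samples, so that among the genes tested they had to differ. KRTAP6-1 carried 2, 1 and 3 reads in HS and 20, 42 and 20 after treatment, a ratio of 13.5 for the pooled reads at equal library size. KRTAP20-1 was at 0 reads in all HS and NS samples and at 3, 10 and 14 after treatment. The other 4 tested, KRTAP11-1, KRTAP3-1, KRTAP17-1 and KRTAP24-1, overlapped between the groups. Reads of such short, similar genes may have been split between copies.

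The interleukin-1 family, which keratinocytes of the upper epidermis express strongly, leaned the same way. Of 16 tested members 11 had a higher mean after drug-loaded MNs, 6 lay above HS in every treated sample and 0 lay below, with a median log2 fold change of 0.65. IL1R2, the decoy receptor that traps interleukin-1, was at 1.62, 5.90 and 8.56 in HS and 15.3, 22.4 and 33.4 after treatment (2.08, standard error 0.52, limma adjusted p = 0.248). IL36RN, the antagonist of interleukin-36, was at 14.4, 13.3 and 14.9 in HS and 28.6, 42.9 and 25.5 after treatment (1.10, limma adjusted p = 0.554). The inflammatory cytokine IL1B itself was low in both groups, at 0.844, 0.948 and 0.541 in HS and 2.14, 0.753 and 1.84 after treatment. The 6 members above HS in every treated sample thus held both restraining proteins (IL37, IL1R2, IL36RN and IL18BP) and the inflammatory cytokines IL18 and IL36G, while IL1B overlapped.

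Collagens and the enzymes that build them lay lower after drug-loaded MNs. Of 10 tested fibrillar collagens 7 had a lower mean and 5 lay below HS in every treated sample (background 10.3%), with a median log2 fold change of -0.80. Of the 3 with a higher mean, COL11A2, also among the chondrocyte markers, differed most (1.53, limma adjusted p = 0.668). It overlapped, at 12.2, 41.1 and 150 in HS and 58.1, 145 and 230 after treatment. COL5A2, which sets the diameter of collagen fibrils, was at 865, 587 and 640.1 in HS and 405, 228 and 249 after treatment (-1.27, standard error 0.38, limma adjusted p = 0.335). Of 24 other collagens 16 had a lower mean, and 8 lay below HS in every treated sample. COL12A1, which lies on the fibril surface, was at 199, 160.3 and 234 in HS and 110.3, 79.2 and 111 after treatment (-0.98, limma adjusted p = 0.248).

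Of 27 collagen processing enzymes 22 had a lower mean and 14 lay below HS in every treated sample, with a median of -0.52. LOXL1, a crosslinking oxidase, was at 487, 399 and 336 in HS and 203, 211 and 181 after treatment (-1.02, limma adjusted p = 0.31). PLOD1, which hydroxylates collagen lysines, was at 123, 125 and 137 in HS and 67.3, 71.7 and 76.6 after treatment (-0.83, limma adjusted p = 0.416 with 12 samples and 0.0536 with 6). The oxidase LOX overlapped, at 128, 216 and 260.2 in HS and 195, 134 and 82.7 after treatment. Of 29 genes of the unfolded protein response and secretory pathway 26 had a lower mean, 17 lay below HS in every treated sample (background 10.3%) and 0 lay above, with a median of -0.40, but none passed in either fit. CREB3L1, a factor that drives the collagen secretory pathway, was at 148, 133 and 130 in HS and 104, 66.9 and 57.1 after treatment (-0.88, limma adjusted p = 0.595). XBP1 overlapped, at 228, 223 and 246 in HS and 104, 209 and 247 after treatment.

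Elastic fibre genes showed the lowest list median, at -0.88. Of 15 tested 14 had a lower mean and 9 lay below HS in every treated sample. Beside FBLN5, the microfibril protein FBN1 was at 158, 161 and 173 in HS and 116, 88.0 and 67.9 after drug-loaded MNs (-0.88, limma adjusted p = 0.3). FBLN2 was at 599.5, 157 and 174 in HS and 85.0, 94.0 and 113 after treatment, so the size of its difference rests on HS replicate 1. Of 25 matricellular and adhesive glycoproteins 20 had a lower mean and 5 lay below HS in every treated sample (median -0.46). THBS2, an inhibitor of vessel growth, was likewise at 1180.0, 404 and 416 in HS, against 295, 187 and 207 after treatment (-1.37, limma adjusted p = 0.506). ECM1 went the other way, at 65.3, 49.7 and 68.4 in HS and 141, 83.0 and 183 after treatment (1.08, limma adjusted p = 0.248). Of 12 small leucine-rich proteoglycans 10 had a lower mean (median -0.31), and LUM, which spaces collagen fibrils, was at 3961, 3257 and 2775 in HS and 2257, 1460.3 and 1584 after treatment (-0.93, limma adjusted p = 0.647). Of 14 hyaluronan genes 11 had a lower mean (median -0.35), with the synthase HAS2 at 35.5, 7.01 and 8.80 in HS and 6.96, 3.86 and 5.40 after treatment and the epidermal synthase HAS3 at 3.4, 2.97 and 3.93 and at 7.07, 5.38 and 9.55.

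Contractile genes of myofibroblasts lay on both sides. Of 13 tested 8 had a lower mean and 2 lay below HS in every treated sample, and their median of -0.11 became 0.03 after rescaling to total reads. ACTA2, the smooth muscle actin that marks myofibroblasts and vessel walls, was at 393, 204 and 216 in HS and 187, 187 and 239 after treatment, and overlapped. The summed FPKM of 9 tested fibroblast markers of 10, which include COL1A1 and COL3A1, ranged from 26186 to 33928 in HS, from 12664 to 19182 after drug-loaded MNs and from 1924 to 2786 in NS. Most of this sum is COL1A1, COL3A1 and LUM, with means of 15711, 8262 and 3331 in HS, while PDGFRA, PDGFRB, THY1, FAP and DPT overlapped between the groups. Of these 9 markers 8 had a lower mean after treatment, 4 lay below HS in every treated sample, and none was at 0. Whether the matrix lists differ beyond the number of fibroblasts in the tissue was not tested. Chondrocyte markers, 12 tested, ranged from 543 to 5360 in HS and from 1101 to 5497 after treatment, and so differed about as much within groups.

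**Figure D4:**
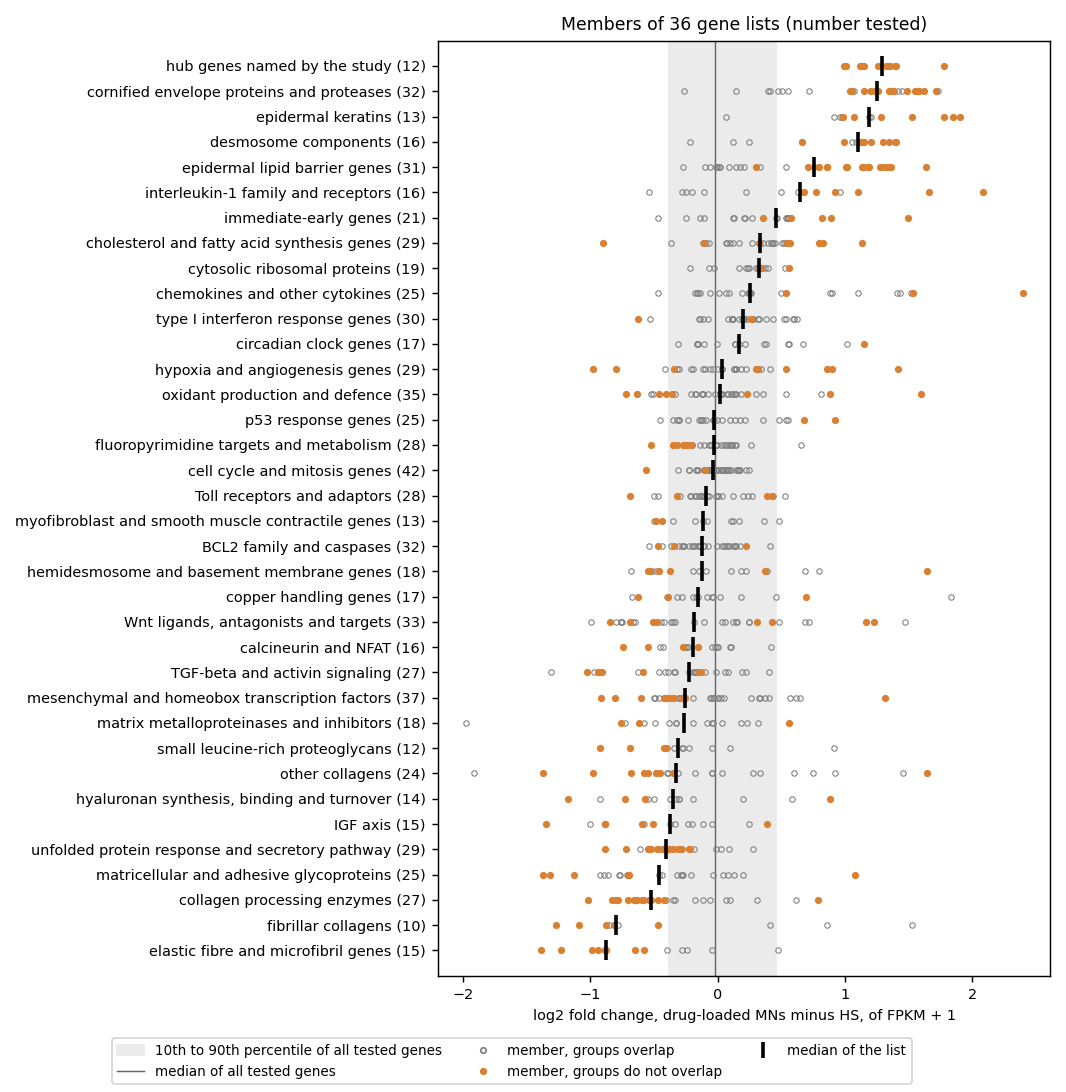
Log2 fold change of FPKM + 1 (drug-loaded MNs minus HS) of the tested members of 36 gene lists, with black bars for list medians, filled points for members whose groups do not overlap and a grey band for the 10th to 90th percentile of all tested genes (-0.38 to 0.46). The epidermal lists, hub genes included, have medians of 0.76 to 1.29, and elastic fibre genes and fibrillar collagens have medians of -0.88 and -0.80.

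RNA of genes in growth factor pathways of the scar leaned lower. Of 27 genes of TGF-beta and activin signaling, the main fibrogenic pathway, 22 had a lower mean in treated scar. In 7 of them every treated sample lay below HS, and none passed in either fit. The median was -0.22, and -0.08 after rescaling to total reads. The ligand TGFB1 was at 117, 73.6 and 71.8 in HS and 66.3, 45.4 and 59.4 after treatment (-0.59, limma adjusted p = 0.586). TGFB2 and TGFB3 had log2 fold changes of -0.91 and -0.93, with the highest value of each in HS replicate 1. FSTL1, a secreted glycoprotein of fibroblasts, was at 484, 473 and 492 in HS and 333, 233 and 169 after treatment (-1.03, limma adjusted p = 0.376). In the IGF axis, 13 of 15 genes had a lower mean and 5 lay below HS in every treated sample (median -0.37), among them the receptor IGF1R at 19.3, 15.1 and 17.1 in HS and 13.5, 12.6 and 7.76 after treatment (-0.59, limma adjusted p = 0.566). PDGFD, a platelet-derived growth factor that acts on mesenchymal cells, was at 44.3, 33.4 and 38.8 in HS and 19.8, 10.5 and 17 after treatment (-1.28, limma adjusted p = 0.24). SPON1, EDIL3, KIF5C, GLIS3 and UGT3A2 were also among the 10 genes with a symbol that had the lowest log2 fold changes at an unadjusted p under 0.01 without overlap, at -1.24 to -1.75. UGT3A2, at 8.48, 1.62 and 8.87 in HS, reached a mean FPKM of 1 only through HS, so the filter favoured its difference. For KIF5C (22.6, 7.68 and 8.06 in HS) and GLIS3 (22.1, 7.63 and 9.11), the size of the difference rests largely on HS replicate 1.

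Wnt genes split. Of 33 tested, 4 lay above and 4 below HS in every treated sample, near the background in each direction. The ligand WNT3 was at 11.0, 8.28 and 10.7 in HS and 19.7, 27.7 and 27.3 after treatment (1.23, limma adjusted p = 0.251), and WNT10A was at 1.64, 2.14 and 3.06 in HS and 4.47, 6.02 and 8.87 after treatment (1.17, limma adjusted p = 0.188). LEF1, a transcription factor of the pathway, was at 13.5, 14 and 18.9 in HS and 7.28, 10.0 and 7.14 after treatment (-0.85, limma adjusted p = 0.294). The target AXIN2 overlapped, at 8.44, 8.62 and 5.94 in HS and 10.9, 9.77 and 5.70 after treatment. Of 16 calcineurin and NFAT genes 12 had a lower mean (median -0.19), with RCAN1, an inhibitor of calcineurin that is itself an NFAT target, at 52.5, 63.4 and 81.5 in HS and 38.9, 32.4 and 44.8 after treatment (-0.74, limma adjusted p = 0.454).

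The lists closest to the drug's action had medians near that of all tested genes, but the fluoropyrimidine list held more genes below HS without overlap than the background share. Of 28 fluoropyrimidine targets and metabolic genes 12 had a higher and 16 a lower mean, 7 lay below HS in every treated sample (background 10.3%) and 0 above (background 8.53%), and the median was -0.03. TYMS, the thymidylate synthase that the drug inhibits, was at 10.8, 11.7 and 12.4 in HS and 10.1, 10.1 and 13.2 after drug-loaded MNs (log2 fold change -0.07 in the limma fit, 95% interval -0.65 to 0.51). Of 42 cell cycle and mitosis genes 18 had a higher and 24 a lower mean (median -0.03), and 2 lay below HS in every treated sample. The proliferation marker MKI67 was at 5.65, 9.18 and 8.75 in HS and 7.96, 5.34 and 11.5 after treatment (0.03, 95% interval in the limma fit -0.68 to 0.75). Of 25 p53 response genes 2 lay above HS in every treated sample. The kinase PLK3 was at 7.71, 8.73 and 8.98 in HS and 18.5, 15 and 17.4 after treatment (0.92, limma adjusted p = 0.375). CDKN1A, the cell cycle inhibitor that p53 induces, overlapped at 49.9, 31.8 and 30.9 in HS and 63.5, 37.3 and 57.5 after treatment. Of 32 BCL2 family genes and caspases, 1 lay above and 2 below HS in every treated sample. The medians of the p53, cell cycle, fluoropyrimidine and BCL2 lists turned positive after rescaling to total reads. All tissue was taken a week after the last patch.

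The needle tips respond to matrix metalloproteinases and oxidants, and genes of both kinds were expressed in HS. MMP2, a gelatinase of fibroblasts, was at 1020.1, 1118 and 1074 in HS and 874, 601 and 481 after drug-loaded MNs (-0.76, limma adjusted p = 0.525). MMP9, the gelatinase of leukocytes, overlapped at 21.8, 9.51 and 19.7 in HS and 18.9, 13.9 and 23.7 after treatment. Of 18 metalloproteinases and inhibitors 13 had a lower mean (median -0.26). In every treated sample 1 of the 18 lay above HS and 2 lay below, near or under the background. Genes of oxidant production and defence were balanced, with 18 of 35 higher and 17 lower (median 0.02, and -0.01 with quantile normalization). Of these, 3 lay above and 5 below HS in every treated sample. The oxidase DUOX1 was at 2.31, 3.13 and 2.87 in HS and 5.68, 6.22 and 5.86 after treatment (0.88, limma adjusted p = 0.21). The peroxidase GPX2 was at 17.1, 15.5 and 16.1 in HS and 31.4, 51.0 and 83.5 after treatment (1.60, limma adjusted p = 0.239). HMOX1, the inducible haem oxygenase, overlapped at 96.3, 61.0 and 105 in HS and 68.8, 48.8 and 48.5 after treatment.

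Lists of innate immune genes had few members without overlap, and the interferon list turned with a single sample. Of 28 Toll receptors and adaptors 2 lay above and 2 below HS in every treated sample, and the median of -0.10 became 0.04 after rescaling to total reads. TLR4 was at 12.7, 9.33 and 9.88 in HS and 14.5, 8.16 and 9.97 after drug-loaded MNs, and MYD88 at 13.2, 15.3 and 14.1 and at 14.4, 14.5 and 10.2. The type I interferon list had a median of 0.20, which became -0.24 without treated replicate 1. ISG15, an interferon-induced modifier, was at 9.02, 8.32 and 8.50 in HS and 40.1, 5.41 and 9.29 after treatment. CXCL11, a chemokine that interferon induces, was at 1.31, 3.48 and 4.61 in HS and 62.8, 12.4 and 8.90 after treatment, again highest in treated replicate 1. Of 25 chemokines and other cytokines 3 lay above HS in every treated sample and 0 below. All 11 tested macrophage markers had a lower mean after treatment and 2 lay below HS in every treated sample, with a summed FPKM of 618 to 766 in HS and 486 to 628 after treatment. Of 12 T cell and NK cell markers 10 had a higher mean and 5 lay above HS in every treated sample. However, the sum of the 12 was only 9.11 to 22.0 in HS and 19.2 to 33.7 after treatment. Granulocyte markers ranged from 105 to 4228 in HS and from 124 to 8402 after treatment.

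**Figure D5:**
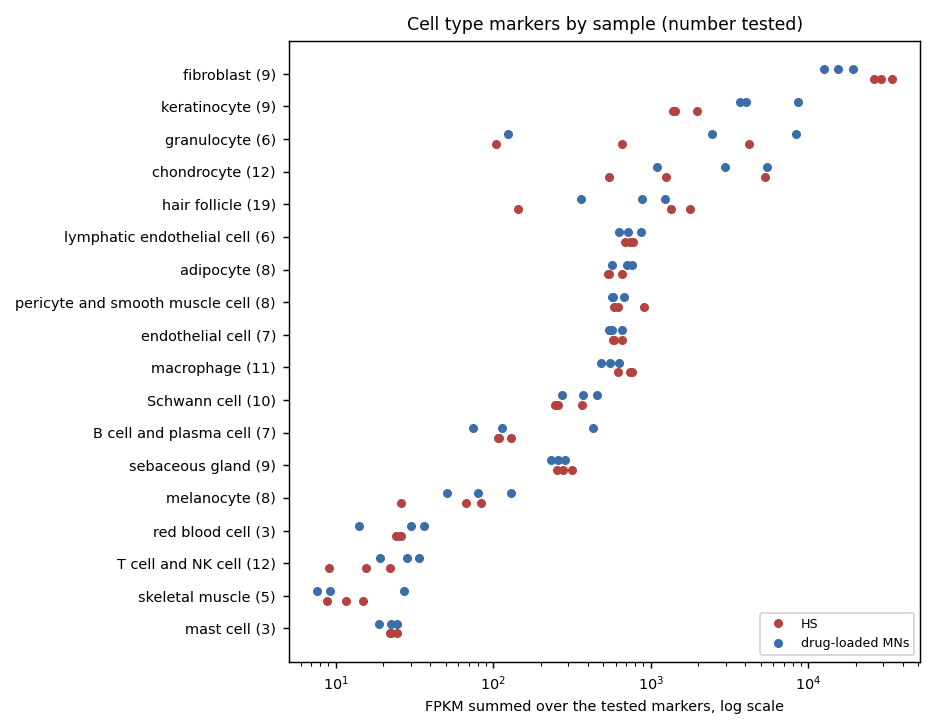
FPKM summed over the tested markers of 18 cell types (number tested in brackets) in each HS and each drug-loaded MNs sample, on a log scale. The fibroblast and keratinocyte sums do not overlap between the groups, and the granulocyte, chondrocyte and hair follicle sums differ widely within both.

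Metabolic and stress lists held members on both sides. In cholesterol and fatty acid synthesis, 22 of 29 genes had a higher mean after drug-loaded MNs and 6 lay above HS in every treated sample (median 0.34). SQLE, which makes squalene epoxide on the way to cholesterol, was at 25.1, 23.1 and 30.0 in HS and 55.4, 50.6 and 70.2 after treatment (1.14, standard error 0.20, limma adjusted p = 0.188). The desaturase FADS2 went the other way, at 76.3, 81.6 and 90.9 in HS and 52.0, 49.5 and 32.6 after treatment (-0.90, limma adjusted p = 0.375). Hypoxia and angiogenesis genes lay on both sides, with 6 above and 3 below HS in every treated sample of 29. HIF1A, the oxygen-sensing transcription factor, was at 257, 247 and 272 in HS and 194, 121 and 94.5 after treatment (-0.98, limma adjusted p = 0.539), whereas EGLN3, which marks the factor for destruction, was at 5.95, 9.42 and 10.7 in HS and 19.8, 25.3 and 28.5 after treatment (1.42, limma adjusted p = 0.472). Of 21 immediate-early genes 17 had a higher mean and 5 lay above HS in every treated sample (median 0.46), with FOS at 7.61, 4.69 and 9.34 in HS and 19.1, 12.0 and 42.9 after treatment (1.5, limma adjusted p = 0.447). Of 17 circadian clock genes 1, RORA, lay above HS in every treated sample and 0 lay below, and of 17 copper handling genes 1 lay above and 2 below, counts near or under the background. The copper importer SLC31A1 was at 35.7, 31.1 and 43.2 in HS and 25.9, 21.6 and 22.3 after treatment (-0.63, limma adjusted p = 0.566). Cytosolic ribosomal protein genes had a median of 0.33, with 2 of 19 above HS in every treated sample, near the background.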

How the data were processed

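Poly-A RNA of 12 ear samples was sequenced. The authors deposited 1 table of FPKM values per gene, which they had scaled between samples. The aligner, counter and genome build are not given in the sources used here. Multiplied by gene length, 100% of the values were whole multiples of a step per sample (within 0.05 of a read), so reads could be counted back. They served only as an alternative, in limma voom. Groups followed the labels. Drug-loaded MNs were compared with HS with limma 3.58.1 in R 4.3.3, on log2(FPKM + 1) of all 4 groups, with moderation along the mean-variance trend and p-values adjusted by Benjamini-Hochberg over 13287 genes, and the fit was tested on simulated data. Alternatives to these choices are listed in the closing section, where those chosen after seeing the data are marked. Fold changes on this scale understate those of low genes. The study's DESeq2 test, which called more genes for this comparison at the same thresholds than either fit, was not run here. P-values measure the spread between 3 samples a group, each set from its own rabbits, so same-numbered samples are not pairs. Of the tested genes, 9450 carried a symbol and 156 were named by their description, 36 of these for the most abundant of several identifiers.

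Genes named were those past the thresholds in either fit, the 10 with a symbol and the largest fold change in each direction without overlap and at an unadjusted p under 0.01, the key and extreme members of 54 gene lists, and the 12 hub genes of the study. Other list members that are named, and the keratin-associated proteins, were chosen after their values were seen. The lists and rules were chosen with earlier results of these data known. No sequences are shown. Results for 2 single genes are not reported here.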

Additional observations from a re-analysis of the deposited data

How the results depend on the processing

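The 1 gene called with 12 samples in the fit remained 1 with a pseudocount of 0.1, a stricter filter (mean FPKM 5), quantile normalization, rescaling to total reads or adjusted p alone. The count was 2 without the filter on low values, 2 without the mean-variance trend, 0 with limma voom (1134 genes at an unadjusted p under 0.05), and 0 to 2 with single replicates left out (0 without any HS replicate or treated replicate 2 or 3, and 2 without treated replicate 1). It was 37 with only HS and drug-loaded MNs samples. That count of 37, under settings chosen after seeing the data, was 40 with a pseudocount of 0.1, 52 with limma voom, 103 after rescaling to total reads, 18 with quantile normalization, 2 without the trend, and 0 to 9 with single replicates left out. The cause of these changes was not tested, beyond the smaller number of samples. Same-numbered HS and treated samples deviated together at correlations of 0.06, 0.44 and -0.17, with 1 sample of 3 closest to its own number. With 3 samples a group these values cannot decide whether the numbers mark pairs. That they do not rests on the design, in which each group was made of its own rabbits. In the fit with a replicate block the count was 0 (1076 genes at an unadjusted p under 0.05) and the limma adjusted p of TLX1 was 0.179. List medians turned sign under some alternatives, among them granulocyte markers (0.77, and -0.22 without HS replicate 2), chondrocyte markers (0.46, and -0.02 without HS replicate 1), oxidant genes (-0.10 without HS replicate 1) and cell cycle genes (0.18 without treated replicate 2), and the hair follicle marker median went from 0.13 to -0.93 without HS replicate 1. Depth limits genes near an FPKM of 1.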
